A study of Rattus norvegicus with 12 samples.

Results

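The renal cortex of 6 water-treated male rats is described here, from 6 of the 12 arrays of the series. The arrays were chosen by their labels alone, which give the tissue as renal cortex, the treatment as water and a group code of VC. All 6 animals were Sprague-Dawley rats of the Crl:CD(SD) stock, 5 weeks old when bought, and received water for 4 weeks on a basal diet. In 3 of them the water was given by gavage and in the other 3 by intravenous injection. The other 6 arrays hold rats given cisplatin, a platinum drug that damages kidney tubules, at 3.75 mg/kg/day by gavage or 0.75 mg/kg/day by intravenous injection according to the sample labels. The design text calls the 3 arrays of a group biological replicates, and each array held total RNA of 1 animal. The labels give the tissue as a whole cortex, so each array mixes all the cell types of that layer, and fewer cells of a type and less RNA per cell cannot be told apart.

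The cortex is the outer layer of the kidney. It holds the glomeruli, where podocytes and fenestrated capillaries filter the blood, and the proximal tubules, which take back most of the filtered sodium, glucose, amino acids, phosphate and protein and run on mitochondrial fatty acid oxidation. Downstream lie the thick ascending limb, which reabsorbs salt without water and secretes uromodulin, the distal convoluted tubule, the connecting tubule and the collecting duct, whose principal cells carry aquaporin water channels and whose intercalated cells move acid and base. The first and second proximal segments lie in the cortical labyrinth, while the third, S3, runs down through the medullary rays into the outer stripe of the outer medulla.

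Levels are the log2 processed intensity of a probe minus the 75th percentile of its array, so that 0 is the brightness of that percentile and 1 unit is a doubling. A probe was counted as above background where the scanner software marked it well above background. The 75th percentile of the 6 arrays lay between 969.7 and 1055 intensity units, 66.1% to 69.6% of the 61537 probes were above background and 0 were saturated. Over 30546 features above background on all 6 arrays, Pearson's r across features was 0.9926 to 0.9947 within a water group and 0.9895 to 0.9923 between the groups, and features are not independent replicates. The first principal component (36.6% of the variance) separated the groups, with scores of -31.4 to -21.2 in gavage water and 19.7 to 29.7 in intravenous water. According to the file headers the 3 gavage water arrays lay on one slide and the 3 intravenous water arrays on another, and the labels give the routes different experiment codes, so that route, experiment and slide cannot be told apart among the water arrays. On intravenous water 3 alone, 287 probes (0.466%) lay in patches of the array that were brighter than the same positions of the other arrays.

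Ferritin, mitochondrial, ribosomal and proximal tubule transcripts gave the brightest named probes of the water cortex. Each of 15645 named genes was represented by its brightest probe and ranked by its mean level over the 6 arrays. In order, the 10 brightest were Ftl1, the ferritin light chain, Kap, a kidney protein regulated by androgen, Miox, the enzyme that opens the ring of myo-inositol, Fbp1 of gluconeogenesis, Rpl41 of the ribosome, Umod, uromodulin, Cyp4a2, a fatty acid omega-hydroxylase, Atp5f1a of ATP synthase, Mt1, a metallothionein, and Ceacam9. The rank orders probes by brightness and not genes by amount of RNA, because probes differ in how well they bind. Of the 9036 genes with several probes, the brightest and dimmest differed by a median of 1.99 log2 units.

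Kap read 9.20, 9.25 and 9.12 after gavage water and 9.46, 9.41 and 9.30 after intravenous water. Miox read 9.36, 8.95 and 9.26 after gavage and 8.97, 9.30 and 9.09 after injection. Slc34a1, the sodium-phosphate cotransporter of the early proximal tubule, read 8.52, 8.25 and 8.45 after gavage and 8.20, 8.45 and 8.40 after injection. The Kap values of the intravenous animals all lay above those of the gavage animals, while those of Miox and Slc34a1 overlapped, and neither the Kap difference of 0.20 (limma, Benjamini-Hochberg adjusted p = 0.196) nor the others passed the test. Slc3a1, the heavy subunit of the cystine and dibasic amino acid transporter of the S3 segment, read 8.35, 8.32 and 8.17 against 8.68, 8.67 and 8.52. Its groups did not overlap, and its difference of 0.34 had the lowest adjusted p among the 40 brightest genes, 0.0874.

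The 150 bases before the start of Kap, Miox, Slc3a1 and Slc34a1 are shown because these tubule genes stood among the 24 brightest. They come from RefSeq on GRCr8 and are written 5′ to 3′ on the strand of the gene, and capitals mark TATAAA or GTTAAT on either strand.
Kap (chr4:168409033-168409182, minus strand): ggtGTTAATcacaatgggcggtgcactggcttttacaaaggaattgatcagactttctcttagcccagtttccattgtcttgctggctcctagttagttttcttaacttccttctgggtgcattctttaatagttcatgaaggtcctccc
Miox (chr7:122284510-122284659, plus strand): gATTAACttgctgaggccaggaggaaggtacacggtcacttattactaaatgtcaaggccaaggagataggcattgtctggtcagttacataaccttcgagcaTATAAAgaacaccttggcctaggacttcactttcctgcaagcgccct
Slc3a1 (chr6:15394750-15394899, minus strand): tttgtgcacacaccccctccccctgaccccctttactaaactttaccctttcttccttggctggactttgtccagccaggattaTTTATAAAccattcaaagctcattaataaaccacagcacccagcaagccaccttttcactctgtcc
Slc34a1 (chr17:9238984-9239133, minus strand): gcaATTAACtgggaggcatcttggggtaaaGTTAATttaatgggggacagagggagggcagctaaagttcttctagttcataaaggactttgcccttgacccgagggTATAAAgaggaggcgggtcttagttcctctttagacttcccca

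Of the 40 brightest genes, 33 had a promoter in the RefSeq table. TATAAA, searched on both strands within 250 bases before the start, was found in 11 of these 33 (33.3%), against 12.93% of all 33469 promoters in the table. GTTAAT was found in 4 of the 33 (12.1%: Kap, Miox, Slc34a1 and Rplp0) against 6.454% of all. In the 3 proximal tubule lists together, 78 of 96 genes had a promoter, 16 of them (20.5%) with TATAAA and 14 (17.9%) with GTTAAT. Each listed gene was counted by its first promoter in the table, while the shares of all count every promoter in it. These matches describe letters in a window and are not binding sites.

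By role, 10 of the 100 brightest genes belonged to a list of proximal tubule metabolism, which besides Miox, Fbp1 and Cyp4a2 held Khk, ketohexokinase, and Acy3, an aminoacylase. A further 3 were early proximal tubule transporters, Slc34a1 and the organic anion transporters Slc22a6 and Slc22a8, 1 was an S3 transporter, Slc3a1, and 1 an uptake transporter, Slc13a3, which carries dicarboxylates. The thick ascending limb had 1, Umod. Ribosomal proteins supplied 17 and oxidative phosphorylation 14, among them Cox6a1, Cox8a and Uqcr10. Housekeeping and iron storage genes supplied 8, among them Ftl1, Fth1, the ferritin heavy chain, and Actg1, and antioxidant enzymes 6, among them Gpx1 and Sod1. The 4 erythroid genes were globins, and Hba-a1 read 8.62, 8.22 and 8.60 after gavage and 8.80, 8.68 and 8.52 after injection, lowest in gavage water 2. Of the 100 brightest, 31 were in no list.

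These genes held their place across animals. All 40 were among the 100 brightest on each of the 6 arrays, as were 83 of the 100. The SD within the groups, pooled over both (3 and 3 animals), had a median of 0.0871 in the 40, against 0.117 for all 11671 named genes above background on all 6 arrays. The 100 brightest probes together held 14% to 14.9% of the summed intensity of an array, and the 1000 brightest 51.7% to 53.3%. Of the 40 brightest probes of any kind, 28 had no gene symbol here, so the named ranking leaves out much of the brightest signal.

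Ceacam9 stood out for its probes. The probe that put it in place 10 had a mean level of 8.73, and the gene's other probe, which was not above background on any array, a mean of -7.42. Rplp0, an acidic ribosomal protein, also spread widely, with mean levels from 2.65 to 8.37 over 3 probes, while the 2 probes of Umod were close, at 8.75 and 8.82. When each gene was represented by the mean of its probes, 28 of the 40 stayed in the list and 33 were in the first 100.

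**Figure D1:**
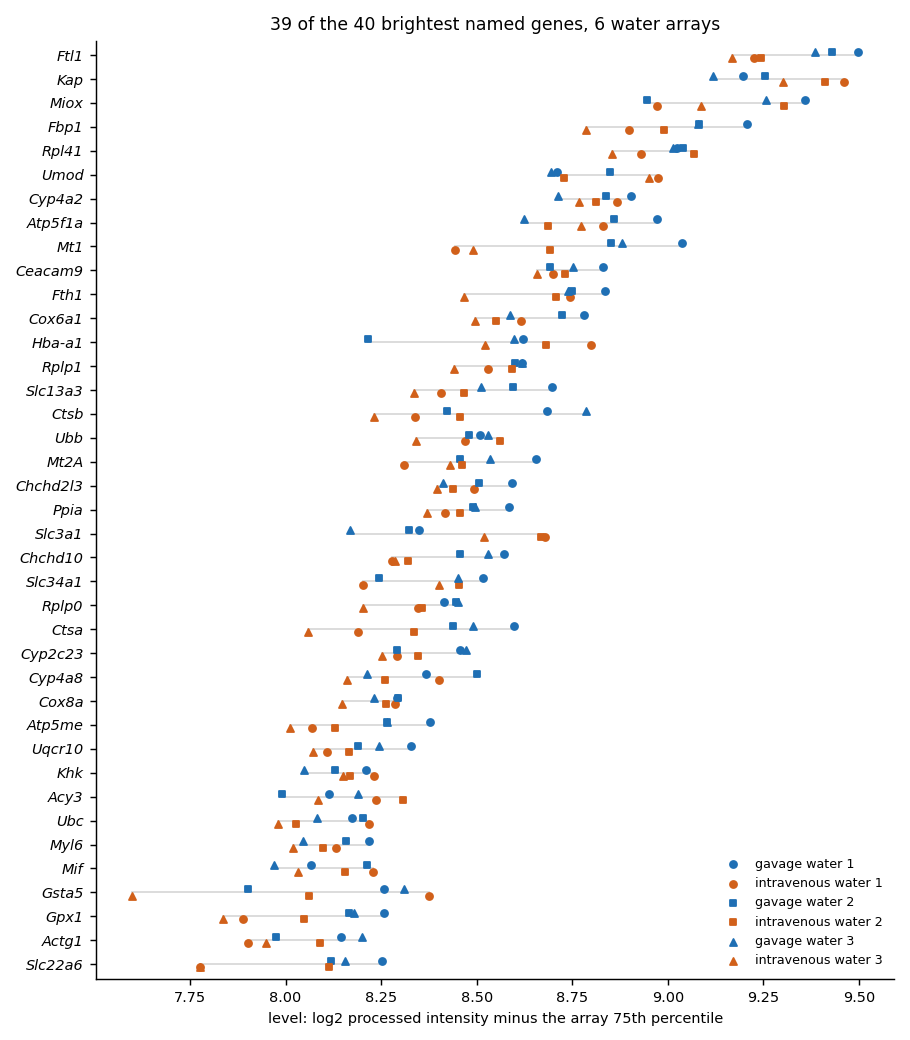
The level of 39 of the 40 brightest named genes on each of the 6 water arrays, with 1 point per animal, gavage water and intravenous water in different colours and the replicate number by the shape of the point. The horizontal axis is log2 processed intensity minus the 75th percentile of the array. The 6 points of a gene mostly lie close together, and those of Kap lie between 9.12 and 9.46.

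The ranking differed in the cisplatin arrays. Of the 100 brightest genes of the water cortex, 50 were among the 100 brightest after gavage cisplatin and 60 after intravenous cisplatin. Umod, in place 6 in water, was in place 6638 after gavage and 2614 after intravenous cisplatin. Kap, in place 2 in water, was in places 782 and 234, and Ftl1, in place 1, was in places 3 and 2. These are ranks within groups and were not tested.

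Markers of the proximal tubule were the brightest of the nephron segment lists, followed by those of the distal segments. The early proximal tubule list had a median rank of 337.5 over 8 genes, proximal tubule metabolism 500 over 39 and proximal uptake and brush border genes 1218 over 39. The thick ascending limb followed at 2847.5 over 12 genes, the intercalated cell at 3168.5 over 16, the distal convoluted tubule at 3358.5 over 8 and the connecting tubule at 3487.5 over 6. Principal cells (4659.5 over 12), podocytes (4891 over 11), the S3 segment (5880 over 7) and the endothelium (6848 over 12) came later, against 7823 for all named genes. A list's median rank depends on which genes and probes it holds and does not measure how many cells there are.

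Among early proximal tubule genes, Slc5a2, the sodium-glucose transporter SGLT2, read 7.26, 7.05 and 7.28 after gavage water and 6.85, 7.02 and 6.72 after intravenous water, in place 156. The gavage values all lay above the intravenous ones. The dimmest of the 8 was Slc5a12, a lactate transporter, in place 3783, at 2.03, 1.74 and 1.91 against 1.60, 1.64 and 1.60. All 8 were above background on all 6 arrays. In the uptake list, Aqp1, the water channel of the proximal tubule, stood in place 175, Lrp2, the endocytic receptor megalin, in place 262, and Slco4c1, an organic anion transporter, was dimmest in place 8707. Lrp2 varied little, at 6.50, 6.33 and 6.42 against 6.49, 6.46 and 6.35.

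The S3 list ran from place 22 to place 9214. Behind Slc3a1, Slc7a13, an acidic amino acid transporter of S3 and the partner of Slc3a1, stood in place 121 and read 6.99, 7.25 and 6.71 against 7.87, 7.64 and 7.38. Its intravenous values all lay above the gavage ones. Slc22a7, the organic anion transporter OAT2, stood in place 5880 and Slc22a13 in place 9214. All 7 measured members were above background on all 6 arrays.

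In the thick ascending limb, Umod read 8.71, 8.85 and 8.69 after gavage water and 8.97, 8.73 and 8.95 after intravenous water. The groups overlapped, and the difference of 0.13 did not pass the test (adjusted p = 0.458, limma). Slc12a1, the sodium-potassium-chloride cotransporter that furosemide blocks, stood in place 818, and Ptger3, a prostaglandin receptor, was dimmest in place 8519. The macula densa, a small plaque at the end of this limb, was not seen through its 2 listed genes, since Nos1 was above background on 0 of the 6 arrays and Ptgs2 was not on all of them.

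Of the distal convoluted tubule genes, Slc12a3, the thiazide-sensitive sodium-chloride cotransporter, read 3.75, 3.81 and 4.22 against 4.28, 3.89 and 4.55, with overlap. Fxyd2, a subunit that modulates the sodium pump, was the brightest of that list in place 102, and Pvalb, parvalbumin, was above background on 0 of 6 arrays. In the connecting tubule Klk1, tissue kallikrein, stood in place 152 and Calb1, the calcium-binding calbindin, in place 3766. Aqp2, the water channel of principal cells under vasopressin control, read 6.88, 6.39 and 6.40 after gavage and 6.37, 6.22 and 6.33 after injection. Gavage water 1 was highest, and the other gavage values lay just above the intravenous ones. The brightest intercalated cell gene was Atp6v1g3, a proton pump subunit, in place 369, followed by Slc26a4, the chloride-bicarbonate exchanger pendrin, in place 609, and Slc26a7 was at background on all 6 arrays.

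Glomerular and vascular genes were present at middle ranks. Podxl, the podocyte sialoprotein podocalyxin, was the brightest of the podocyte list in place 1291, and 10 of 11 podocyte genes were above background on all 6 arrays. Plvap, a diaphragm protein of fenestrated endothelium, stood in place 509, and 12 of 12 endothelial genes were above background throughout. Lyz2, lysozyme of macrophages, stood in place 257 and was highest in intravenous water 2 and 3 (6.70 and 7.09, against 6.10 to 6.28 on the other 4 arrays).

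Markers of neighbouring tissues were mostly dim. Of 9 adrenal genes 3 were above background on all 6 arrays, and Cyp11b2, Star and Dbh on 0. Of 6 skeletal muscle genes 3 were above background on all 6, and Myh1 on 0, and of 8 liver genes 4, with Ttr and Serpina1 on 0. The urothelial genes Upk2 and Psca were above background on 0 of 6 as well. Inner medullary and osmolyte genes were measurable in 7 of 8, with Slc14a2, a urea transporter of the inner medullary collecting duct, in place 9346 at -2.65 to -2.24. Against the label of cortex, all 8 early proximal tubule genes, 12 of 12 thick ascending limb genes, 7 of 8 distal convoluted tubule genes, 15 of 16 intercalated cell genes and 10 of 11 podocyte genes were above background on all 6 arrays, and 0 of 2 macula densa genes were.

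**Figure D2:**
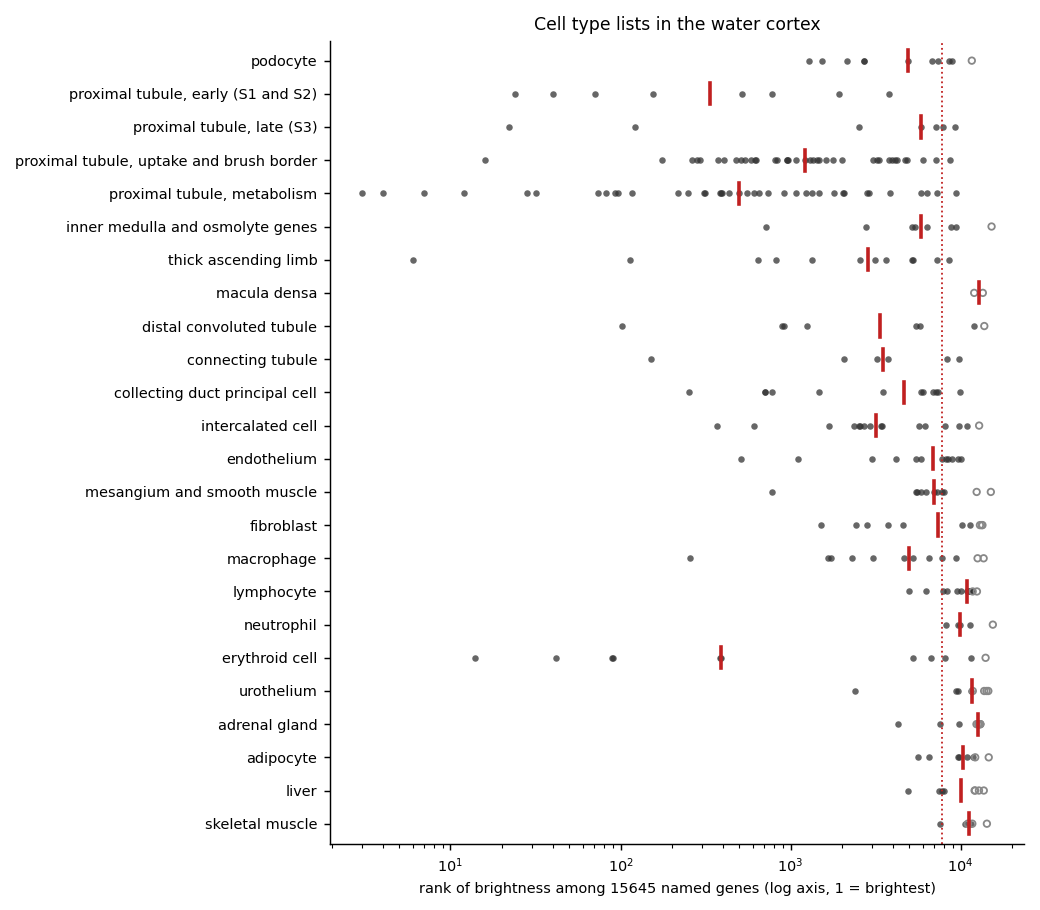
The brightness rank of every listed gene, on a log axis from 1 for the brightest of 15645 named genes, with 1 row per cell type list and 1 point per gene, filled where the gene was above background on all 6 arrays and open otherwise. Red bars mark the list medians and the dotted line the median of all named genes. Early proximal tubule genes have the lowest median rank, 337.5, and the S3 list runs from place 22 to place 9214.

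Most genes differed little between animals of a group. Over 11671 named genes above background on all 6 arrays, the SD within the groups had a median of 0.117, a 90th percentile of 0.322 and a 99th of 0.797, and 67 genes exceeded 1. Ribosomal proteins were the steadiest list, with a median SD of 0.05 over 73 genes, followed by oxidative phosphorylation with 0.07. The 25 genes with the largest SD are described next, and their spread is what chose them. The last of them, Cdh20, had an SD of 1.308, and the next outside, Gp2, one of 1.307.

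The widest spread belonged to Cyp2c24, a cytochrome P450 of the drug and fatty acid oxidising family, with an SD of 2.92. It read 1.68, -4.94 and 2.64 after gavage water and 2.37, 2.55 and 2.81 after intravenous water. Gavage water 2 alone was low, and the other 5 animals lay close together. The same animal was lowest for Ephx2, the soluble epoxide hydrolase that acts on epoxides such enzymes make, at 1.77, -1.99 and 2.74 against 0.69, 0.92 and 1.48. In the same way Dusp15, a phosphatase, was low in gavage water 3 alone, at -3.40 against 1.84 to 3.06 in the others, and its other probe had an SD of 0.82. Resp18, a secretory granule protein, was low in intravenous water 2 alone, at 0.57 against 3.58 to 4.93.

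The lens crystallins Crygd and Cryga, neighbours on chromosome 9, divided the animals alike. Cryga read 0.15, 3.56 and 0.22 after gavage water and -0.10, 4.27 and 3.45 after intravenous water. Crygd read -2.33, 1.04 and -2.35 against -2.75, 1.73 and 0.77. Both were high in gavage water 2 and intravenous water 2 and 3 and low in the other 3, with no value in between, so the split ran through both routes. Serpina3n, an acute-phase serine protease inhibitor, was higher in the same 3 animals, at -4.18, -1.14 and -4.67 against -4.59, -2.10 and -1.79. A second Crygd probe was flat, with an SD of 0.157. Cryga was at least 1.27 in all 6 cisplatin animals.

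The promoters of both crystallins are shown because both genes were high in the same 3 animals. Capitals mark their longest shared run of bases, 13 long, which starts 76 bases before the start of Crygd and 77 before that of Cryga, on GRCr8 from RefSeq.
Crygd (chr9:73937410-73937559, minus strand): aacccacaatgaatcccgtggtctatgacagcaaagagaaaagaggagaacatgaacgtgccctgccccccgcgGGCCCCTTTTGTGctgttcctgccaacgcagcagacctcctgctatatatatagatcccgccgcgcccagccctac
Cryga (chr9:73978383-73978532, minus strand): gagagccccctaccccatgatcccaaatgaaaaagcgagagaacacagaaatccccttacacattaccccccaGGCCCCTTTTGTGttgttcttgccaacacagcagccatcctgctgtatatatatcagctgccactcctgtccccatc
At equal distance from the start the sequences hold the same base at 43 of 150 positions (28.7%). The shared run starts at 76 bases in Crygd and 77 in Cryga, so this count compares the sequences out of register. It does not measure how alike they are once aligned, which was not tested.

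Other genes also split into high and low animals. Cish, a feedback inhibitor of cytokine signalling, was high in gavage water 1 and intravenous water 2 (1.20 and 1.26, against -1.35 to -0.66 in the others), and its other probe had an SD of 1.06. Agps, an enzyme of ether lipid synthesis, was high in gavage water 3 and intravenous water 2 (4.99 and 5.36, against 2.12 to 2.59), but its other probe had an SD of only 0.0988. Tex10 split 4 to 2 with another probe at 0.264. Of the 25 genes, 9 had another probe above background, with an SD over 1 in 2, over 0.5 in 5 and under 0.5 in 4. These SDs do not show whether the 2 probes moved together. Pearson's r between them over the 6 arrays was 0.99 for Cish, 0.96 for Dusp15 and Rec114 and 0.69 for Tgfb2. It was 0.23 for Crygd, -0.01 for Agps, -0.14 for Tex10 and -0.17 for Pkib, whose other probe had an SD of 0.536. Where the probes of a gene disagreed, which of them follows the transcript was not tested.

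Transcripts known from other tissues were among the 25. Tnp2, a transition protein of spermatids, read -5.28, -4.85 and -4.95 after gavage water and -4.65, -1.82 and -0.90 after intravenous water. Oaz3, a testis antizyme, read -4.68, -5.42 and -5.40 against -4.72, -2.42 and -1.10. Both were higher in intravenous water 2 and 3 than in the other 4, and of the cisplatin animals only intravenous cisplatin 2 was high, at 2.22 for Tnp2 and 1.52 for Oaz3 against at most -4.09 in the other 5. Rec114, a meiosis gene, was highest in intravenous water 3 at -0.09, and its other probe had an SD of 1.80. Cdh20, a cadherin, was high in intravenous water 3 alone (-1.53 against at most -4.06), where its probe lay in one of the bright patches.

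The MHC class I genes RT1-CE10 and RT1-CE15 were also among the 25. RT1-CE10 was low in gavage water 1 and intravenous water 1, at -3.25 and -3.57 against -1.03 to 0.00, and RT1-CE15 was lowest in gavage water 2, at -3.40. Prl3d4, of the prolactin family, was low in intravenous water 3 alone, at -4.24 against -0.93 to -0.19. Akr1b8, an aldose reductase relative, was low in gavage water 2 and intravenous water 1. Klk1c10, a kallikrein, was high in gavage water 1 and in intravenous water 1 and 3. Tgfb2, a transforming growth factor, was lowest in intravenous water 3, at -4.67. Others of the 25 were Pkib, Matn1 and Lpal2, with SDs of 1.83, 1.69 and 1.64.

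In the cisplatin arrays, 18 of the 25 had an SD within groups above the 90th percentile there (0.489), and 13 exceeded 1, against 2.1% of all the genes. Of the 100 genes with the largest SD in gavage water, 33 were also among the 100 largest in intravenous water.

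**Figure D3:**
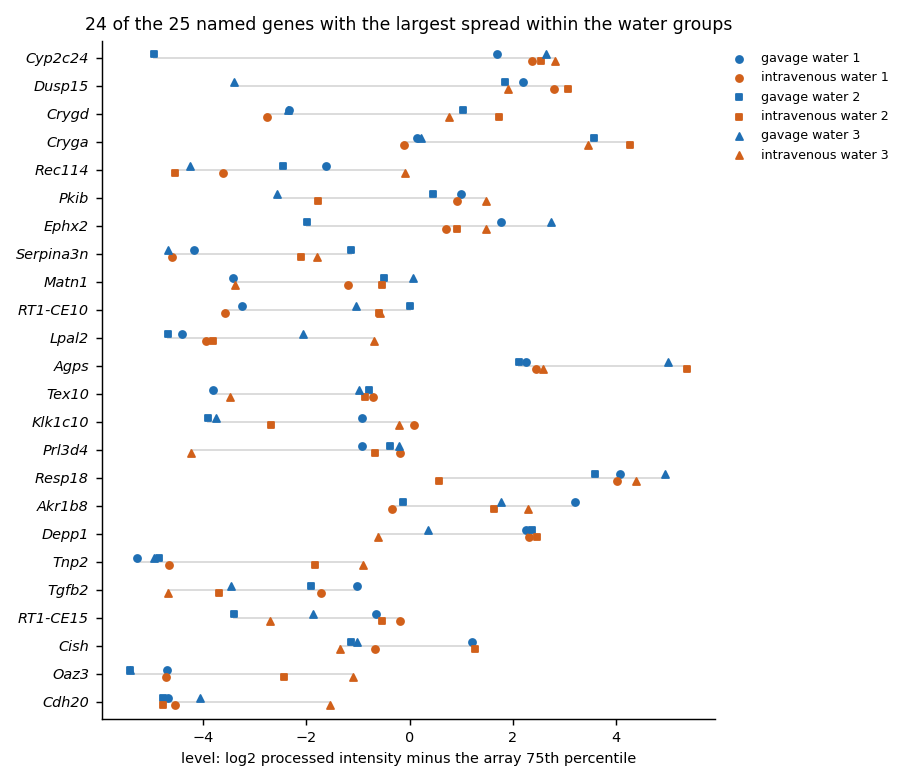
The level of 24 of the 25 named genes with the largest SD within the water groups on each of the 6 water arrays, with 1 point per animal, coloured by route and shaped by replicate number. The horizontal axis is log2 processed intensity minus the 75th percentile of the array. Cyp2c24 has 1 low point, gavage water 2 at -4.94, and Crygd and Cryga each have 3 high and 3 low points.

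Among the function lists, interferon response genes had the largest median SD within groups, 0.438. MHC genes had 0.326, cell cycle genes 0.324, clock genes 0.271 and glucocorticoid and fasting genes 0.260. Single stress-hormone and clock genes varied more than their lists. Fkbp5, a chaperone induced by glucocorticoids, read 1.74, 2.21 and 3.39 after gavage water and 2.00, 2.64 and 4.01 after intravenous water. Nr1d1, the clock repressor REV-ERB alpha, read -2.49, -2.26 and -1.25 against -3.12, -3.38 and -1.09. Both were highest in replicate 3 of each group. Ddit4, a stress-induced inhibitor of mTOR, was lowest in the same 2 animals, at 2.97, 3.13 and 1.70 against 2.88, 2.66 and 1.30. Depp1, a forkhead factor target induced by fasting, also was, at 0.36 and -0.61 against 2.26 to 2.46. So were the immediate early gene Zfp36, at -3.49 and -2.78 against -2.04 to -1.34, and Nr4a1, at 0.42 and 0.26 against 0.47 to 1.49. Further clock genes did not all follow Nr1d1. Bhlhe40 was highest in intravenous water 3 but not in gavage water 3 (-0.54, -0.33 and -0.44 against -0.85, -0.96 and 0.01). Cry1 was lowest in both, with little spread after gavage (-0.05, -0.08 and -0.14 against 0.47, 0.72 and -0.50). The time of day or order in which animals were killed is not given in the labels, and its part in these values was not tested.

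Among interferon-induced genes, Isg15, a ubiquitin-like modifier, was highest in gavage water 2 (1.51, against 0.09 to 1.02 in the others), and so was Usp18, its protease (-1.07 against -2.33 to -1.72). Gbp2, a guanylate-binding protein, was highest in intravenous water 3, at 2.22 against 0.91 to 1.33. RT1-Bb, an MHC class II chain, was lowest in intravenous water 1, at 2.11 against 2.82 to 3.86. Of the injury markers, Lcn2, the lipocalin NGAL, was low in gavage water 2, at -4.54 against -1.91 to -1.25. Havcr1, kidney injury molecule 1, was dim in all 6, at -5.46 to -3.77, and Cyp24a1, which breaks down vitamin D, ranged from 0.30 to 2.68.

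Intravenous water was then compared with gavage water, by limma on the 6 water arrays over 32190 features that either group had above background in all 3 animals. At an adjusted p under 0.05, 1039 features were higher in intravenous water (3.23%) and 207 lower (0.643%), 1246 in all (3.87%), and 7081 had an unadjusted p under 0.05. Leaving out any 1 of the 6 arrays gave 267 to 613 in all, and a fit that took its spread from all 12 arrays gave 0. When the arrays were instead scaled on their spike-in probes, which are added to the RNA in fixed amounts, the split was 2577 higher and 39 lower. That scaling moved the median difference of all named genes from -0.04 to 0.13. Of the 12031 named genes, 213 were higher (1.77%) and 81 lower (0.673%), 2.44% in either direction, by the 75th percentile. The typical difference was small, with a median absolute value of 0.146. Among named genes, 1374 (11.4%) had all 3 intravenous values above the gavage values and 2285 (19%) had all 3 below, 30.4% together. Over all features the share was 30.1%, with 14.2% above and 15.9% below, so that groups without overlap were common in this comparison.

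Among the named genes that passed, the largest rise was that of Prss35, a serine protease, by 2.49. Prss35 was dim in both groups, at -4.76, -5.10 and -3.93 after gavage water against -1.51, -2.57 and -2.25 after intravenous water. Gclm, the modifier subunit of the enzyme that makes glutathione's precursor, read -4.19, -3.80 and -4.50 after gavage water and -1.51, -1.86 and -2.28 after intravenous water. Its intravenous values all lay far above, a rise of 2.28 (SE 0.25, 4.85-fold, adjusted p = 0.0119, limma). Its catalytic partner Gclc, picked out after its value was seen, differed by 0.47 and did not pass. Slc22a7, the S3 organic anion transporter, read -0.14, -0.52 and -0.30 against 1.16, 0.95 and 0.64. It rose by 1.24 with no overlap (SE 0.16, 2.35-fold, adjusted p = 0.0195, limma). Krt19, a keratin of collecting duct and injured tubule cells, read -0.27, 0.29 and 0.10 against 1.34, 1.22 and 1.19. It rose by 1.21 (SE 0.15, 2.31-fold, adjusted p = 0.0165, limma), again with no overlap.

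The other 7 of the 10 largest rises were Or6z5 (an olfactory receptor, 1.50), C10h16orf89 (1.47), Acta1 (skeletal muscle actin, 1.41), Lrrc52 (1.39), Pcgf6l1 (1.37), Nxph4 (1.36) and Pbp2 (1.33). Like Prss35 and Gclm, all 7 were dim in both groups, C10h16orf89 reading -2.67, -2.68 and -2.43 against -0.78, -1.02 and -1.58. Among the named genes that passed, the largest fall was that of Tmem178b, a transmembrane protein, which read -1.56, -1.41 and -1.47 after gavage water and -3.43, -3.28 and -3.34 after intravenous water. It fell by 1.87 (SE 0.07, adjusted p = 0.00312, limma), and the groups lay far apart. Sez6, a neuronal membrane protein, fell by 0.90 and Fat3, an atypical cadherin, by 0.83. The transcription factor Maf read 2.42, 2.42 and 2.43 against 1.86, 1.66 and 1.38 and fell by 0.78. The remaining 6 were Cdkn1c (0.67), Atf6 of the unfolded protein response (0.62), Nfic (0.61), Layn (0.60), Zdhhc17 (0.59) and Snrk (0.58).

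The measured S3 genes were all higher in intravenous water. Of these 7 genes 1 passed, Slc22a7 (14.3% of the list, against 2.44% of all named genes), and the median difference was 0.65, against -0.04 for all named genes. All 7 were also higher with quantile, normexp or spike-in processing and in a fit with a slide block, with medians of 0.544 to 0.815. The S3 list's summed intensity, in multiples of the 75th percentile, was 402 to 479 after gavage and 543 to 657 after intravenous water. This sum is mostly that of the 2 brightest members, Slc3a1 and Slc7a13, which did not pass. Slc3a1 alone had a mean level of 8.45, or 350 times the 75th percentile. Of the 8 early proximal tubule genes 0 passed. All 8 were lower by the 75th percentile, with a median of -0.31, 7 of 8 by quantile normalization, 6 of 8 by spike-in scaling and 5 of 8 in the slide-blocked fit. Among 39 uptake and brush border genes 3 passed, 7.69% of the list, with 19 higher, 20 lower and a median of -0.01. Slc15a2, a peptide transporter, rose by 1.09 and Mep1b, a brush border protease, by 0.77, while Dab2, the adaptor for megalin, read 4.83, 4.82 and 4.90 against 4.20, 4.39 and 4.23 and fell by 0.57. Slc22a2, the organic cation transporter OCT2, read 5.13, 5.39 and 4.80 against 5.96, 5.63 and 5.58. Its groups did not overlap, and its difference of 0.61 did not pass (adjusted p = 0.126, limma).

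Thick ascending limb and intercalated cell genes lay mostly on opposite sides of 0 by the 75th percentile. Of 12 thick ascending limb genes 0 passed and 11 were higher in intravenous water, with a median of 0.16, and 12 by spike-in scaling but 8 with the slide as a block. Of 15 intercalated cell genes 0 passed and all 15 were lower, with a median of -0.19, but 9 by spike-in scaling and 10 in the slide-blocked fit. Of 39 proximal metabolism genes 0 passed, with 31 lower by the 75th percentile and 18 by spike-in scaling. Of 12 principal cell genes 0 passed, with 9 lower by the first scaling and 5 by the second. Of 11 podocyte genes 1 passed (9.09%, against 2.44% of all named genes), with 9 lower by the first and 5 by the second. It was Cdkn1c, a cell cycle inhibitor kept on in these cells, which read 2.92, 3.03 and 2.93 after gavage water and 2.19, 2.43 and 2.25 after intravenous water. Of 10 macrophage genes 0 passed and 9 were higher by the 75th percentile, with a median of 0.30. By spike-in scaling 10 were higher, and 9 in the slide-blocked fit. Of 12 endothelial genes 0 passed, with 9 lower by the first scaling and 2 by the second. Of 11 lymphocyte genes 0 passed, with 6 and 4 lower. Genes of a list come from the same arrays and are not replicates of the animals.

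Some genes of neighbouring tissues were higher in intravenous water, in lists too short for their share of genes that passed to be set against the 2.44% of all named genes. Of 3 adrenal genes tested 2 were higher and 1 passed: Th, tyrosine hydroxylase, read 1.11, 0.89 and 0.88 after gavage water and 1.72, 1.82 and 1.65 after intravenous water and rose by 0.77. The adrenal list's summed intensity, most of it that of Th, was 2.51 to 2.85 against 3.88 to 4.43, with Cyp11b2, Star and Dbh at background in both groups. Of 5 skeletal muscle genes tested 3 were higher and 2 lower, with a median of 0.06, and 2 higher with a median of -0.12 in the slide-blocked fit. Those that passed were Acta1 and Mb, myoglobin, which rose by 0.67. That list summed, mostly through Mb, to 0.61 to 0.73 against 0.85 to 1.02, with Myh1 at background. The adipocyte list summed to 2.25 to 2.46 against 3.06 to 3.28, although its 7 tested genes were split into 4 higher and 3 lower, with 0 passing and Lep at background. The part of such tissue in the other differences was not tested.

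**Figure D4:**
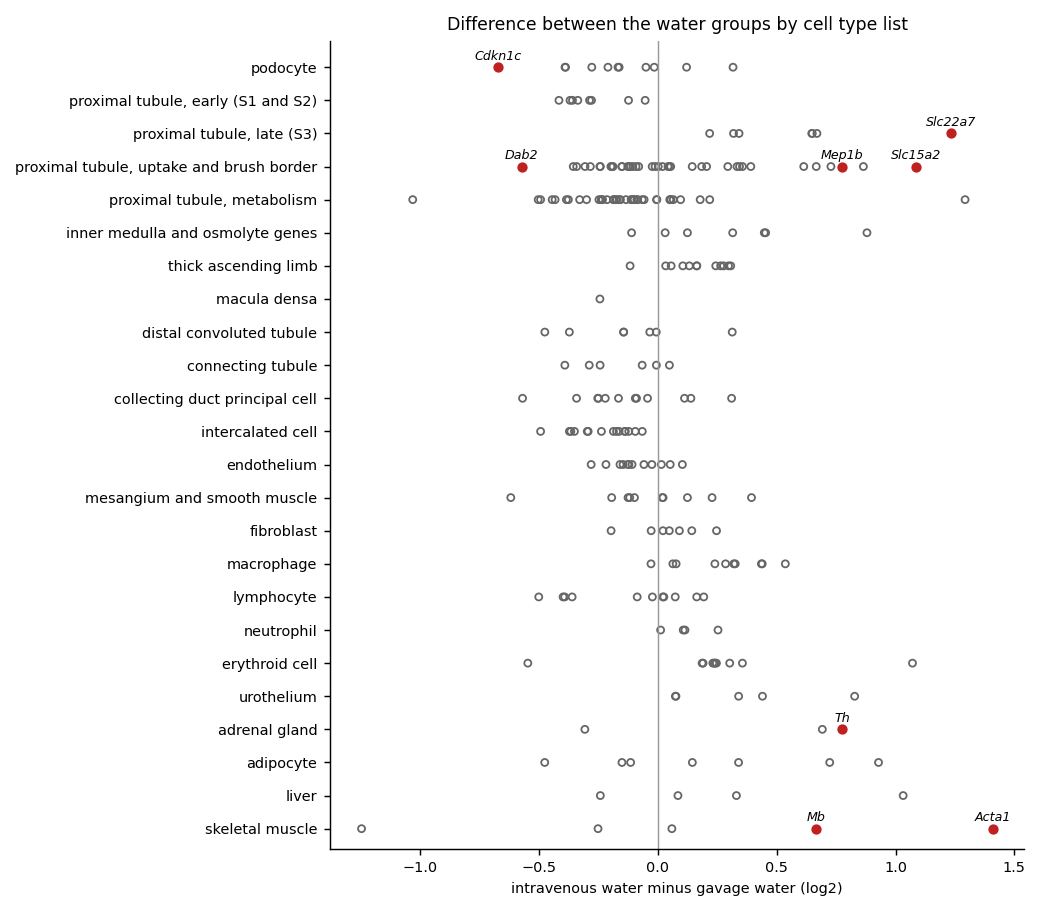
The difference between the water groups, intravenous minus gavage, in log2 units for every tested gene of each cell type list, with 1 point per gene, open where it did not pass the test and filled red with its name where it did (limma, adjusted p under 0.05). All 7 S3 genes lie to the right of 0, with a median of 0.65, and all 8 early proximal tubule and 15 intercalated cell genes to the left, though under spike-in scaling 2 and 6 of these turned to higher.

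Among the function lists, 0 of 73 ribosomal proteins and 1 of 74 oxidative phosphorylation genes (1.35%) passed, against 2.44% of all named genes. Of the ribosomal proteins 60 were lower by the 75th percentile but 13 by spike-in scaling, and of the oxidative phosphorylation genes 58 but 19. The 1 that passed, Cox7c of cytochrome oxidase, rose by 0.68. Of the 100 brightest genes 0 passed, with 84 lower by the first scaling and 33 by the second. Fdft1, squalene synthase, rose by 0.45 as the 1 of 13 sterol and fatty acid synthesis genes that passed. Cdkn1a, the cell cycle inhibitor p21, read 4.90 on all 3 gavage arrays and 5.20, 5.19 and 5.19 on the intravenous ones. It rose by 0.29 (adjusted p = 0.0493, limma), a small difference beside almost no spread. The difference between the same slides in gavage cisplatin was 0.23, and the slide-blocked water difference was 0.06. The gene has 3 probes, and this one read 4.55, 4.81 and 4.75 in gavage cisplatin. Whether this probe follows the p21 transcript was not tested. Immediate early, interferon, MHC and cell cycle lists gave 0 of 22, 0 of 14, 0 of 12 and 0 of 14. These lists are too short for 0 to be told from the share of all named genes.

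The gavage cisplatin animals gave values for the slides, because array 1 of that group lay on the slide of the gavage water arrays and arrays 2 and 3 on that of the intravenous water arrays. All 3 received the same dose by the same route. Over the 1039 features higher in intravenous water, the median water difference was 0.71 and the median difference between the slides in gavage cisplatin, second slide minus first, was 0.69, with the same sign in 976 (93.9%). Over the 207 lower features the medians were -0.45 and -0.28, with the same sign in 179 (86.5%). Over all tested features 67.0% had the same sign. The first slide is represented by only 1 cisplatin animal, so the slide and that animal cannot be told apart.

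For single genes the cisplatin slide difference was 1.69 for Gclm, 1.53 for Acta1, 1.14 for Prss35, 0.92 for Th and 0.85 for Cox7c, all of them risers. It was 0.01 for Lrrc52, 0.05 for Krt19 and -0.11 for Nxph4, near 0. For Slc22a7 it was -1.13, for Mep1b -1.07 and for Slc15a2 -0.66, opposite to the water difference. Slc22a7 in gavage cisplatin read -2.62 on the first slide and -2.34 and -5.15 on the second. Mep1b read -0.43 against 1.27 and -4.27, and Slc15a2 -2.58 against -2.78 and -3.70. For Slc22a7 and Mep1b the sign thus rested on gavage cisplatin 3. The cisplatin slide difference was 0.85 for Tmem178b, again opposite. A fit to all 12 arrays with the slide as a block takes this difference away from the water difference, and in it 8 features passed, 6 higher and 2 lower, of which 1 was among the 1246. Slide-blocked differences were 1.38 for Lrrc52, 1.16 for Krt19, 2.36 for Slc22a7, -2.72 for Tmem178b and 0.59 for Gclm, and 0 of these 5 passed. A fit to all 12 arrays without the slide called 0 features, with 4780 at an unadjusted p under 0.05.

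**Figure D5:**
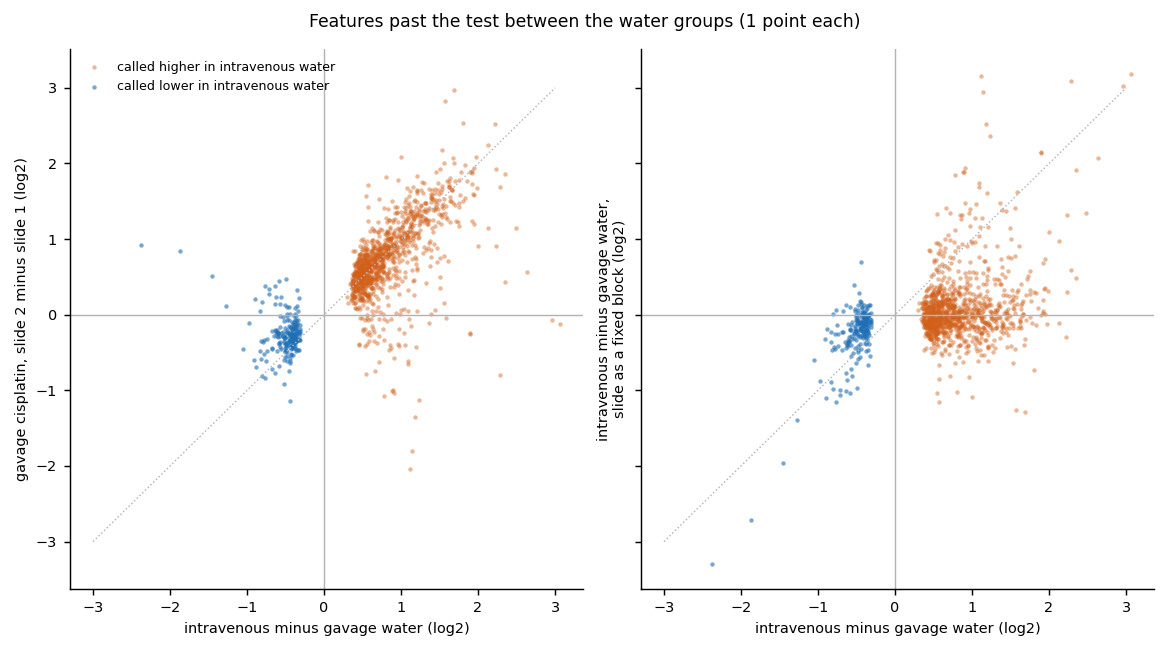
The 1246 features that passed between the water groups, 1 point each, with the intravenous minus gavage water difference in log2 units on the horizontal axis and, on the vertical axes, the difference between the same slides in gavage cisplatin and the water difference fitted with the slide as a block. Features higher in intravenous water mostly lie above 0 on the first vertical axis, 976 of 1039, and on both sides of 0 on the second, 522 of 1039 above it.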

How the data were processed

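The 6 water arrays and, for slides and ranks, the 6 cisplatin arrays were used. Per the file headers, the authors scanned Cy3 arrays and read the spots with Agilent's Feature Extraction software, which the submitters' processing notes give as 10.7, and the deposited processed intensity is background-subtracted within an array. The authors' deposited value table holds the ratio of that intensity to the array's 75th percentile, as found by matching it to 61537 scanner probes (column medians 0.109 to 0.118). Why this scaling was chosen is not stated in the labels.

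From the deposited intensity, log2 values minus each array's 75th percentile were computed without 1439 control spots and 42 spots marked uneven. RefSeq accessions gave 28206 probes 1 symbol, 33331 none and 0 several; the design refers to rn4. A gene took its brightest probe, and features above background on all 3 arrays of a group were tested with limma 3.58.1 (R 4.3.3), two-sided, on the 6 arrays (4 residual degrees of freedom), with Benjamini-Hochberg adjustment. The test was tried on simulated data. Named were the 40 brightest, 25 most variable and 10 largest rises and falls, set list members and 9 fixed genes. Members and lists were chosen with earlier results of these data known. The normexp alternative used median rather than mean spot signals. The number of arrays limits the precision. Some genes that these rules name are not reported here.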

Additional observations from a re-analysis of the deposited data

How the results depend on the processing

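The count of features between the water groups depended on the arrays and the slide. It was 0 higher and 0 lower in a fit to all 12 arrays, with a random slide block and with a replicate block (5930 at an unadjusted p under 0.05, limma), and 6 and 2 with the slide as a fixed block. Over 30546 features same-numbered replicates did not deviate together (r of deviations from the group means of -0.0284, -0.171 and 0.0222). Such an r cannot exclude a factor that same-numbered animals share and that acts on a part of the genes. Replicate 3 of both groups was extreme for Fkbp5, Nr1d1, Ddit4, Depp1, Zfp36 and Nr4a1. It also had the lowest scores on the second principal component, -21.3 and -25.9. Whether the numbers pair the animals is not stated in the labels. Leaving out each array in turn gave 252 to 555 higher and 14 to 58 lower, fewest higher without intravenous water 2 and most without intravenous water 3. Without a filter on dim probes it was 386 and 18, with normexp background 1301 and 683, and with spike-in scaling 2577 and 39. Quantile normalization, the mean of probes, a filter on all 6 arrays, uneven spots kept, the deposited table and the patches left out (chosen after seeing the data) kept both counts within 1.5 times.

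With the slide as a fixed block these differences changed sign: Aqp2 (0.26), Slc34a1 (0.24), Umod (-1.13), Fdft1 (-0.18), Cox7c (-0.17), Th (-0.15) and Acta1 (-0.12). With spike-in scaling Slc34a1 did (0.11). The causes were not tested. Umod in gavage cisplatin read -1.04 on the first slide and 1.33 and -0.87 on the second. Slc34a1 read 3.63 against 4.89 and 1.79, so for both genes the animals sharing the second slide differed widely. Of the 29 named calls, 0 passed with the slide as a fixed block. Of the 25 most variable genes, 16 to 20 stayed when an array was left out, and of the 40 brightest 39 to 40.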

Other observations

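Odorant, trace amine and vomeronasal receptors, which sense smells and pheromones, were picked out after their values were seen. Of 1243 on the array, 233 were tested between the water groups, with a median level of -3.93. Of these 15 passed and were higher in intravenous water and 0 were lower (6.44%, against 2.44% of all named genes), and 196 of 233 differences were above 0, with a median of 0.29. In gavage cisplatin the same receptors had a median difference of 0.44 between the second and the first slide. The part of slide, experiment and route in these values cannot be told apart among the water arrays.

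Immune and proliferation genes completed the picture of the water cortex. Of 13 lymphocyte genes 11 were above background on all 6 arrays, the brightest being Pax5 in place 4968 and Cd3d, a T cell receptor subunit, in place 6231 at 0.41, -0.30 and -0.03 after gavage water and -0.09, 0.21 and 0.03 after intravenous water. Neutrophil genes were dimmer, S100a9, a calgranulin, standing in place 8170 and Elane, neutrophil elastase, above background on 0 arrays. Of the cell cycle genes, Mki67, a proliferation marker, stood in place 6502. Epo, erythropoietin of interstitial cells, was above background on 0 of the 6 arrays.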
